A study of Rattus norvegicus with 8 samples.

Results

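To determine how the genes of cytokine signalling, antigen presentation and immune recognition differ between embryonic and postnatal retinal ganglion cells (RGCs), 30 genes were followed in RNA-seq libraries of purified rat RGCs. They were Ptprc, Aif1 and Faslg, together with the genes whose symbols begin as those of the major histocompatibility complex (RT1 in the rat), peptide transporters, chemokines, interleukins, interferons, tumour necrosis factors, their receptors and numbered CD antigens do, among the 1998 of 32623 Ensembl gene IDs that could be paired with a symbol. Cxcr4 and Cd24 were left out by the rule, and genes of these families without a paired symbol were not analysed here. The rule reads symbols and no measured value, but it was written with earlier results of these data known. The libraries came from Sprague Dawley rats without genetic change or treatment, 4 from embryos at embryonic day 21 (E21) and 4 from pups at postnatal day 11 (P11), each from the RGCs of an independent litter. Retinas were dissociated with papain, of which more units were used at P11, and the cells were panned first on plates with an anti-macrophage antibody and then on plates with an antibody against Thy1, a surface protein of RGCs. RNA was depleted of ribosomal RNA before sequencing.

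RGCs are the neurons that carry the output of the retina to the brain. Class I molecules of the major histocompatibility complex (MHC) present peptides, loaded in the endoplasmic reticulum by way of the transporter that Tap1 helps to form, to CD8 T cells, and in developing visual neurons they are also known for a part in the remodelling of synapses. Class II molecules present peptides to CD4 T cells and are made mainly by professional antigen-presenting cells. Chemokines such as Cxcl1 attract leukocytes through G protein-coupled receptors, cytokine receptors start JAK-STAT or NF-kB signalling, and surface proteins such as Cd47, Cd200 and Cd55 restrain phagocytes or complement.

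The E21 libraries held between 13899299 and 20116017 counted reads, and the P11 libraries held between 14780002 and 17756824. Expression is given as CPM, the share of a library's counted reads scaled to a common total with TMM factors, and a floor of 3 counts in a library corresponded to between 0.152 and 0.219 CPM. CPM takes no account of gene length, so levels were not compared between genes. A gene was called at an adjusted p below 0.01 (edgeR's quasi-likelihood test, Benjamini-Hochberg over all genes tested) and a log2 fold change, P11 over E21, beyond 1 in either direction. Of 14043 genes tested, 16.5% were called higher at P11 and 8.16% higher at E21. Of the markers of other cell types, the 5 of mural cells and fibroblasts had summed levels between 4.76 and 7.63 CPM at E21 and between 415 and 812 CPM at P11, and all 5 were called higher at P11. The 6 photoreceptor markers summed to between 6.99 and 8.50 CPM at E21 and between 29.9 and 49.4 CPM at P11. Called higher at P11 as well were the endothelial markers Flt1 and Flt4 (log2 fold change 4.44 each), the amacrine marker Gad1 (4.03) and the glial markers Hes1 (5.78) and S100b (5.45). Called higher at E21 were the markers Gja1 of glia (-4.92), Gpr182 of endothelium (-1.38), Prox1 of amacrine cells (-1.18) and Mog of oligodendrocytes (-1.14). The 4 neuronal markers that could be paired summed to between 3695 and 3839 CPM at E21 and between 2346 and 2486 CPM at P11. Of these, Gap43 was the 1 called (log2 fold change -1.46), from a mean of 1711 CPM at E21 to 623 CPM at P11. The others changed far less, Uchl1 by -0.21, Nrcam by -0.12 and Rbfox3 by 0.08 on the log2 scale. The pan-RGC markers Pou4f1, Rbpms and Thy1 were not analysed here.

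Of the 30 immune genes, 20 had enough counts to be tested. Called higher at P11 were 11 genes, 4 MHC class I genes, Tap1, Il2rg, Il1rap, Tnfrsf12a, Cxcl1, Cd38 and Cd164, or 55.0% of those tested. Called higher at E21 were 2, the chemokine Cxcl6 and Faslg, which encodes Fas ligand, or 10%. The other 7 tested genes were not called, and 4 of them had an adjusted p below 0.01 in edgeR's quasi-likelihood test but a change inside the fold threshold. A gene low in both stages but above the filter in 1 had to differ, so the calls were also counted without the filter. There 13 of all 30 genes (43.3%) were called higher at P11, where 12.9% of 22557 genes with a count were. Another 2 (6.67%) were called higher at E21, where 5.79% of those 22557 were. The 22557 include IDs without a paired symbol, from which none of the 30 could come. With the filter, of the 1779 tested genes that had a paired symbol, 286 were called higher at P11 and 138 higher at E21. Without the filter the median log2 fold change was 0.68 for the 30 genes and 0.03 for all 22557. In 14 of the 30 genes all P11 libraries exceeded all E21 libraries, an arrangement found for 25.5% of all genes with a count. For Aif1 this rests on a tie of 1 count that depth alone breaks. In 6 the E21 libraries were all above those of P11, as in 23.2% of all genes.

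**Figure D1:**
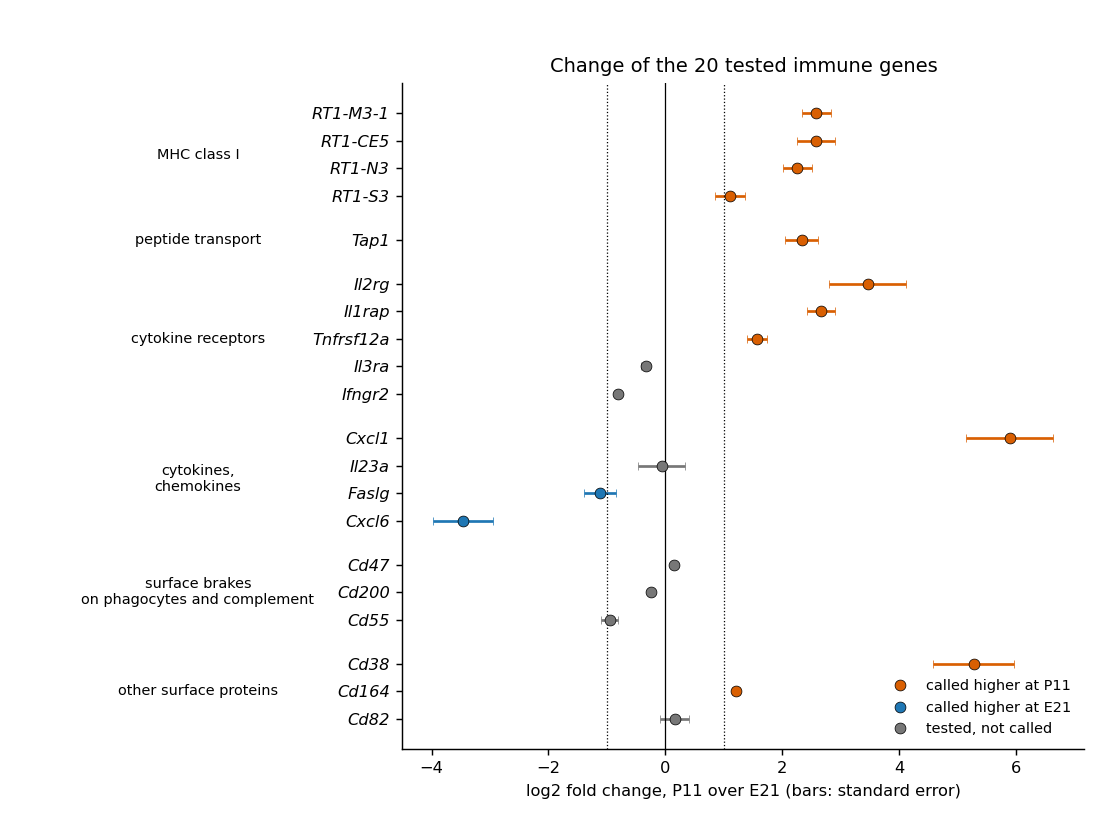
Log2 fold change, P11 over E21, of the 20 tested immune genes, grouped by role. Points are the fitted values, bars are standard errors from 4 libraries a stage, and dotted lines mark the fold threshold. The 4 MHC class I genes and Tap1 lie to the right of the threshold, Cxcl1 and Cxcl6 lie at opposite ends, and the 3 surface brakes lie inside it.

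Promoter stretches of 5 genes are shown as background, taken from RefSeq on build GRCr8 by gene symbol, and no expression result rests on them. Some are from the CXC chemokine genes of chromosome 14, of which Cxcl1 and Cxcl6 were called in opposite directions. The other stretches are from the antigen presentation genes Tap1 and RT1-N3 of chromosome 20, which were called in the same direction. Each is the 250 bases before the annotated start, read 5′ to 3′ on the strand of the gene. Windows were found for 28 of the 30 genes, all except Cd82 and Aif1, and for 11 of the 11 genes called higher at P11. The counts were made on another build, Rnor_6.0, so these windows give no position of a counted read. Capitals mark matches, on either strand, to 2 motifs that were chosen after the values were known. GAAANNGAA is the core of the element through which interferons act on their target genes (ISRE-like), and GGNNTTTCC is a core like that bound by NF-kB. Cxcl1 lies at chr14:17479322-17479571, Cxcl2 at chr14:17467256-17467505 and Cxcl6 at chr14:17596418-17596667, all on the minus strand, while Tap1 lies at chr20:4668544-4668793 on the minus strand and RT1-N3 at chr20:2666239-2666488 on the plus strand.
Cxcl1: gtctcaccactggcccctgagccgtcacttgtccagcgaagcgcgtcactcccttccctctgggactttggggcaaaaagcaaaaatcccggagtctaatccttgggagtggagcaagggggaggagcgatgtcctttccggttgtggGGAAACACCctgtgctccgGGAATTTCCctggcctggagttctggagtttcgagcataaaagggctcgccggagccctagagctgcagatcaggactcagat
Cxcl2: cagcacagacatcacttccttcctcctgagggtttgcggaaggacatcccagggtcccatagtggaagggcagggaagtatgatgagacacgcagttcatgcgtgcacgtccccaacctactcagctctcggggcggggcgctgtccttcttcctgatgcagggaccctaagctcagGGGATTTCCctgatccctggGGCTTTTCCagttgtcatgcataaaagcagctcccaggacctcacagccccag
Cxcl6: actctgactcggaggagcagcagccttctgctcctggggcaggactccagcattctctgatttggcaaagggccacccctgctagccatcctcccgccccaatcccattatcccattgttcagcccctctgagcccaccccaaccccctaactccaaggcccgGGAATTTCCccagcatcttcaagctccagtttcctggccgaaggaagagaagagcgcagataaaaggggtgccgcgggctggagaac
Tap1: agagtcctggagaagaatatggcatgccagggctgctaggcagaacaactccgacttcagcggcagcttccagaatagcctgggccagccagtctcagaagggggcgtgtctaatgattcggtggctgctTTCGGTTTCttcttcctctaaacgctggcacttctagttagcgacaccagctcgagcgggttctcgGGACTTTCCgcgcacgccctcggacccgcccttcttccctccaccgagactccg
RT1-N3: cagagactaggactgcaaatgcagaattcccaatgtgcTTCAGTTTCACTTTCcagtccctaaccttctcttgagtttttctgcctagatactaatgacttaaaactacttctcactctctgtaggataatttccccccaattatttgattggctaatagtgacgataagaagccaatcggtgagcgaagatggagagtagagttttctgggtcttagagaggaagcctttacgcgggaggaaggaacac

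All 3 chemokine stretches held the NF-kB-like letters, beginning 83 and 102 bases before the start in Cxcl1, 73 and 53 in Cxcl2 and 87 in Cxcl6. The capitals in Tap1 are an ISRE-like match at 120 bases and an NF-kB-like match at 54 bases, which do not overlap, and those in RT1-N3 are 2 overlapping ISRE-like matches at 212 and 206 bases. Counted over windows of 250 bases before to 50 bases after the start, the ISRE-like letters stood in 7 of the 28 genes (25%), namely Cd160, Cd80, Il15, Il1rap, RT1-N3, RT1-S3 and Tap1, and in 9.71% of 33469 rat windows. Of these 7 genes, 4 were called higher at P11, as were 11 of all 28 genes with a window, and with the motifs chosen after the values were known nothing is read from this. The NF-kB-like letters stood in 6 genes (21.4%), namely Cxcl1, Cxcl2, Cxcl6, Faslg, Ifngr2 and Tap1, and in 6.05% of windows. Of these, 2 were called higher at P11 and 2 higher at E21. Another motif, TGACGTCA, the palindromic site of CREB, stood in the window of 1 gene, RT1-Ba (3.57%), and in 1.83% of all windows. A gene with more than 1 window was counted if any of them matched, while the share over the rat is of single windows. Only these letters were searched, so a window without a match may hold a variant of the element. These are matches of letters, and no binding was measured here.

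The MHC class I genes rose together. All 4 that were paired with a symbol, RT1-M3-1, RT1-CE5, RT1-N3 and RT1-S3, were called higher at P11, and their summed level went from between 2.21 and 3.67 CPM in the E21 libraries to between 11.7 and 14.3 CPM in the P11 libraries. RT1-M3-1 (ENSRNOG00000000763), a relative of the class I gene M3 that presents formylated peptides, was at 0.736, 0.507, 0.787 and 0.804 CPM in E21 replicates 1 to 4 and at 4.57, 5.68, 3.43 and 3.27 CPM in P11 replicates 1 to 4. The 2 stages did not overlap, and the lowest P11 library lay well above the highest E21 library. Its log2 fold change was 2.58 (SE 0.25, adjusted p = 6.717e-08, edgeR's quasi-likelihood test), where the SE was derived from the log2 fold change and the F statistic.

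RT1-CE5 (ENSRNOG00000000723), of the RT1-C/E class I region, was at 0.134, 0.456, 0.735 and 0.366 CPM at E21 and at 3.49, 2.19, 2.35 and 2.67 CPM at P11. Its E21 libraries held as few as 2 counts, and none of them reached the P11 range. The log2 fold change was 2.58 (SE 0.32, adjusted p = 1.455e-06, edgeR's quasi-likelihood test). RT1-N3 (ENSRNOG00000000795), of the RT1-N class I group, was at 0.603, 0.709, 0.997 and 0.658 CPM at E21 and at 3.02, 4.38, 4.32 and 2.84 CPM at P11. Here too the stages were apart, with a log2 fold change of 2.26 (SE 0.24, adjusted p = 2.410e-07, edgeR's quasi-likelihood test).

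Of the 4 class I genes, RT1-S3 (ENSRNOG00000000777) lay closest to the fold threshold. It was at 0.736, 1.72, 1.15 and 1.54 CPM at E21 and at 2.69, 2.01, 3.62 and 2.89 CPM at P11, so that the highest E21 library lay just under the lowest P11 library. The log2 fold change was 1.10 (SE 0.26, adjusted p = 9.016e-04, edgeR's quasi-likelihood test). It was 0.92 without E21 replicate 1 and 0.97 without P11 replicate 3, under the fold threshold both times. RT1 genes are near-identical and differ between rat strains, and alignments to more than 1 place, 37.4% to 42.2% of records at E21 and 31.7% to 36.3% at P11, were set aside in the counting. Which RT1 gene a read came from is therefore uncertain, and the values of single RT1 genes may stand for reads of their relatives.

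Tap1 (ENSRNOG00000000457), a subunit of the transporter that brings peptides to class I molecules, was at 0.536, 0.304, 0.577 and 0.731 CPM at E21 and at 2.82, 2.37, 2.03 and 3.38 CPM at P11. Every P11 library exceeded every E21 library, and the log2 fold change was 2.33 (SE 0.28, adjusted p = 9.359e-07, edgeR's quasi-likelihood test). By contrast, the MHC class II genes could not be tested. RT1-Ba (ENSRNOG00000000451), a chain of a class II molecule, had 2, 1, 3 and 2 counts at E21 and 2, 2, 0 and 1 at P11. RT1-DOb (ENSRNOG00000000454), a chain of the DO protein that regulates class II loading, had 3, 5, 3 and 1 counts at E21 and 0, 3, 2 and 2 at P11. Both lay at or near the floor in every library, the stages overlapped, and the exact permutation test of their CPM (two-sided) gave p = 0.2571 for RT1-Ba and p = 0.2857 for RT1-DOb.

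**Figure D2:**
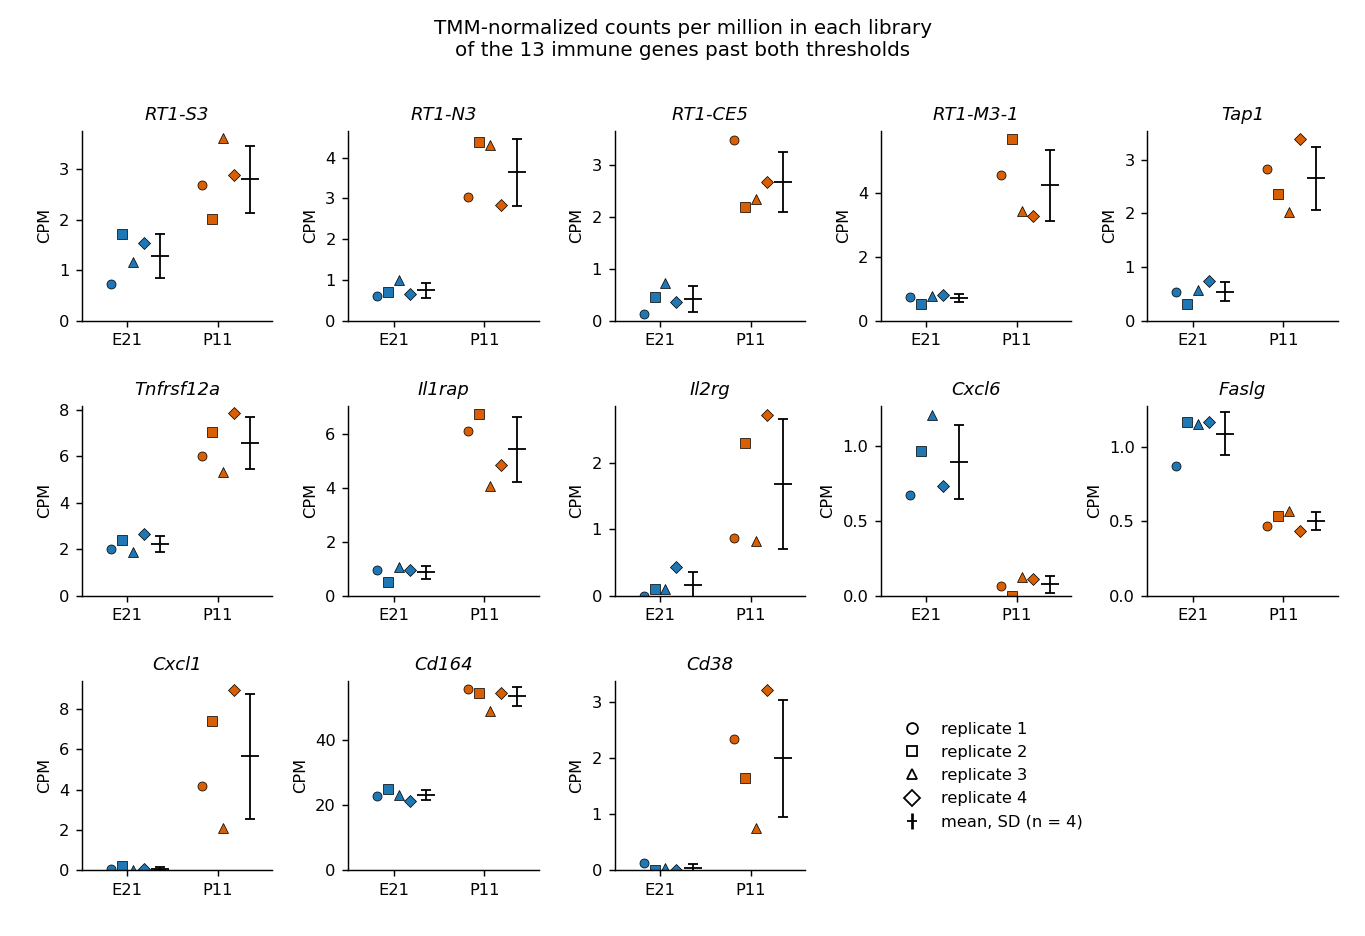
TMM-normalized CPM, on linear axes that start at 0, in each of the 8 libraries for the 13 called immune genes. Symbols are replicates, and the cross and bars are the mean and SD of 4 libraries. In all 13 panels the libraries of the 2 stages do not overlap, and the P11 libraries of Cxcl1, Cd38 and Il2rg are spread more widely than those of the class I genes.

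Of the 5 cytokine receptor genes, 3 were called, and all 3 were higher at P11. Il1rap (ENSRNOG00000001928), the accessory chain with which the interleukin-1 receptor signals, was at 0.937, 0.507, 1.05 and 0.951 CPM at E21 and at 6.12, 6.75, 4.06 and 4.85 CPM at P11. No E21 library came near the P11 range, and the log2 fold change was 2.67 (SE 0.24, adjusted p = 2.613e-08, edgeR's quasi-likelihood test). Tnfrsf12a (ENSRNOG00000003546), the receptor Fn14 of the cytokine TWEAK, was at 2.01, 2.38, 1.89 and 2.63 CPM at E21 and at 5.98, 7.04, 5.33 and 7.85 CPM at P11. Its stages were separate as well, with a log2 fold change of 1.56 (SE 0.17, adjusted p = 3.084e-07, edgeR's quasi-likelihood test).

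Il2rg (ENSRNOG00000003954), the common gamma chain shared by the receptors of interleukin-2, interleukin-15 and related cytokines, was at 0, 0.101, 0.105 and 0.439 CPM at E21 and at 0.874, 2.31, 0.825 and 2.73 CPM at P11. It was below the floor in E21 replicates 1 to 3, and the P11 libraries fell into a lower and a higher pair. The log2 fold change was 3.46 (SE 0.66, adjusted p = 4.314e-04, edgeR's quasi-likelihood test), or 4.39 without E21 replicate 4, and the ratio of summed counts, P11 over E21 at equal depth, was 11.8 with an exact 95% interval of 6.17 to 25.2 that covers counting error only.

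The other receptor genes, Ifngr2 and Il3ra, were higher at E21 in every library but stayed inside the fold threshold. Ifngr2 (ENSRNOG00000002032), the signalling chain of the interferon gamma receptor, was at 83.7, 94.2, 90.0 and 86.3 CPM at E21 and at 49.9, 48.5, 54.5 and 48.9 CPM at P11. The stages were clearly apart with little spread in either, and the log2 fold change of -0.81 (SE 0.05) had an adjusted p of 3.328e-10 in edgeR's quasi-likelihood test. Il3ra (ENSRNOG00000001325), the specific chain of the interleukin-3 receptor, was at 38.0, 41.2, 40.8 and 42.4 CPM at E21 and at 26.2, 31.7, 34.2 and 36.2 CPM at P11. The difference was -0.34 on the log2 scale (SE 0.08, adjusted p = 1.424e-03, edgeR's quasi-likelihood test). Its E21 libraries lay above all P11 libraries, by a narrow margin over P11 replicate 4.

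Of the 7 cytokine and chemokine genes, the neutrophil-attracting chemokines Cxcl1 and Cxcl6 were called in opposite directions. Cxcl1 (ENSRNOG00000002802) was at 0.0669, 0.203, 0 and 0.0731 CPM at E21 and at 4.17, 7.40, 2.09 and 8.95 CPM at P11. These are 1, 4, 0 and 1 counts against 62, 125, 33 and 164, so it was at or near the floor in every E21 library and well above it in every P11 library. The log2 fold change was 5.89 (SE 0.75, adjusted p = 6.861e-05, edgeR's quasi-likelihood test), or 6.85 without E21 replicate 2, and the ratio of summed counts was 65.5 (exact 95% interval 29.8 to 180). The P11 libraries differed among themselves by 4.27-fold from the lowest, replicate 3, to the highest, replicate 4.

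Cxcl6 (ENSRNOG00000002843) was at 0.669, 0.963, 1.21 and 0.731 CPM at E21 and at 0.0672, 0, 0.127 and 0.109 CPM at P11. In counts these were 10, 19, 23 and 10 against 1, 0, 2 and 2, and every P11 library was below the floor. Its log2 fold change was -3.46 (SE 0.51, adjusted p = 9.119e-06, edgeR's quasi-likelihood test). The related chemokine gene Cxcl2 (ENSRNOG00000002792) had too few counts to be tested, with 0, 0, 1 and 0 counts at E21 and 1, 3, 0 and 5 at P11. The stages overlapped for Cxcl2, and the exact permutation test (two-sided) gave p = 0.1429.

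Faslg (ENSRNOG00000002978), the ligand that triggers cell death through Fas, was at 0.870, 1.17, 1.15 and 1.17 CPM at E21 and at 0.470, 0.533, 0.571 and 0.436 CPM at P11. The E21 libraries lay above all P11 libraries, with a log2 fold change of -1.12 (SE 0.28, adjusted p = 1.615e-03, edgeR's quasi-likelihood test) close to the threshold. With the DESeq2 Wald test its adjusted p was 0.01513 and the call was lost. Il23a (ENSRNOG00000003254), the specific subunit of interleukin-23, was at 0.402, 0.659, 0.787 and 0.951 CPM at E21 and at 0.202, 0.710, 1.08 and 0.655 CPM at P11. Its stages overlapped, with a log2 fold change of -0.06 (SE 0.39, adjusted p = 0.8884, edgeR's quasi-likelihood test).

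Il15 (ENSRNOG00000003439), a cytokine whose receptor includes the common gamma chain, did not pass the filter, with 0, 2, 0 and 1 counts at E21 and 10, 14, 8 and 25 at P11. All E21 libraries were below the floor and all P11 libraries above it. The exact permutation test of CPM (two-sided) gave p = 0.02857, the smallest that 4 libraries against 4 allow and not adjusted over the 10 genes tested in this way. The ratio of summed counts was 19.4 (exact 95% interval 6.33 to 97.1). Il15 was called higher at P11 by edgeR without the filter and by DESeq2. Of the 8 fits that left out a library, it passed the filter in 5 and was called in all 5. Lta (ENSRNOG00000000838), the cytokine lymphotoxin alpha, had 4, 1, 2 and 0 counts at E21 and 3, 1, 0 and 0 at P11, with overlapping stages and p = 0.6286 in the exact permutation test.

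The 3 surface proteins that restrain phagocytes or complement were expressed at both stages, and 0 of 3 were called by edgeR's quasi-likelihood test at both thresholds, although all 3 had adjusted, and so unadjusted, p values below 0.05. The DESeq2 Wald test also called 0 of 3. Cd200 (ENSRNOG00000002141), which holds back myeloid cells through its receptor, was at 219.9, 229.6, 227.4 and 240.3 CPM at E21 and at 184.9, 183.5, 200.6 and 201.4 CPM at P11. On the log2 scale the difference was -0.25 (SE 0.04, adjusted p = 6.637e-05, edgeR's quasi-likelihood test), and the stages did not overlap. Cd47 (ENSRNOG00000001964), the signal that tells phagocytes not to engulf a cell, was at 83.9, 88.6, 82.4 and 88.3 CPM at E21 and at 101.01, 95.2, 92.9 and 89.3 CPM at P11. The P11 libraries lay above the E21 libraries by a narrow margin, with a log2 fold change of 0.14 (SE 0.05, adjusted p = 1.335e-02, edgeR's quasi-likelihood test).

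Cd55 (ENSRNOG00000003927), the decay-accelerating factor that limits complement on the cell surface, was at 12.9, 12.4, 15.6 and 16.0 CPM at E21 and at 5.17, 6.98, 7.68 and 9.27 CPM at P11. All E21 libraries were higher, and the log2 fold change of -0.95 (SE 0.15, adjusted p = 3.379e-05, edgeR's quasi-likelihood test) stopped just short of the fold threshold. It passed the threshold without E21 replicate 1 (-1.004), E21 replicate 2 (-1.01) or P11 replicate 4 (-1.09).

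Among the 6 other surface proteins, Cd164 and Cd38 were called higher at P11. Cd164 (ENSRNOG00000000304), a sialomucin of endosomes and the cell surface, was at 22.9, 25.0, 23.3 and 21.3 CPM at E21 and at 55.8, 54.6, 49.1 and 54.6 CPM at P11. It had at least 291 counts in every library, the smallest spread over the P11 libraries of the 11 genes called higher there, and a log2 fold change of 1.21 (SE 0.06, adjusted p = 2.233e-11, edgeR's quasi-likelihood test). Cd38 (ENSRNOG00000003069), an enzyme that consumes NAD and is found on many leukocytes and some other cells, had 2, 0, 1 and 0 counts at E21 and 35, 28, 12 and 59 at P11. In CPM these were 0.134, 0, 0.0525 and 0 against 2.35, 1.66, 0.762 and 3.22, so that every E21 library was under the floor and every P11 library above it.

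The log2 fold change of Cd38 was 5.28 (SE 0.69, adjusted p = 8.337e-06, edgeR's quasi-likelihood test), or 6.25 without E21 replicate 1, and its summed counts had a ratio of 45.7 (exact 95% interval 15.3 to 224). Cd82 (ENSRNOG00000000047), a tetraspanin, was at 1.10 ± 0.149 CPM (SD, n = 4) at E21 and 1.22 ± 0.238 CPM (SD, n = 4) at P11, with overlapping stages and a log2 fold change of 0.16 (SE 0.25, adjusted p = 0.5733, edgeR's quasi-likelihood test). The T cell and natural killer cell proteins Cd160 and Cd247 and the costimulatory ligand Cd80 could not be tested. Their counts were 2 to 7 per library for Cd160 (ENSRNOG00000000097), 1 to 5 for Cd247 (ENSRNOG00000003298) and 2 to 8 for Cd80 (ENSRNOG00000001527), and the stages overlapped for each. The exact permutation test (two-sided) gave p = 0.05714 for Cd160, p = 0.4857 for Cd247 and p = 0.1714 for Cd80.

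**Figure D3:**
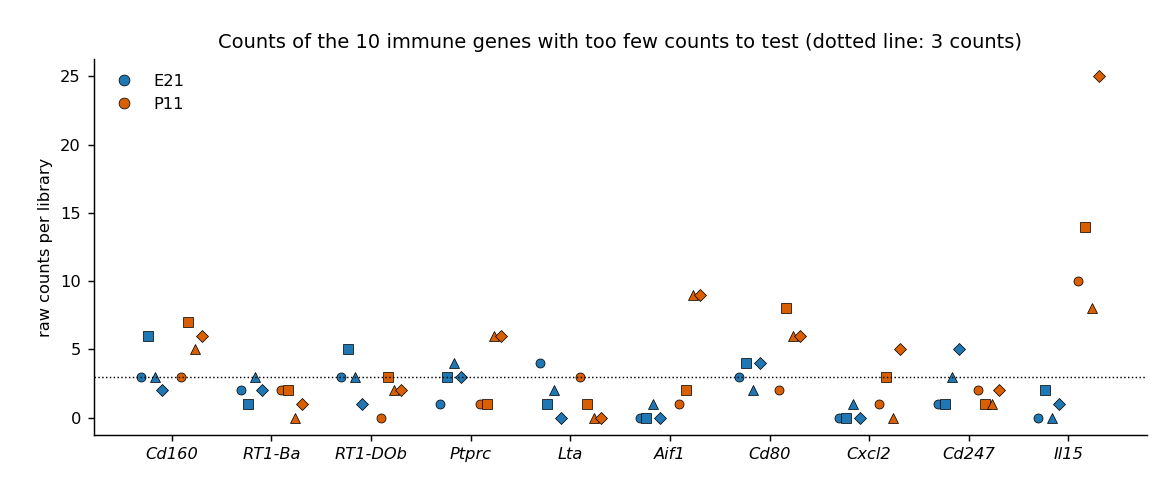
Raw counts per library, on a linear axis, of the 10 immune genes with too few counts to be tested. Each point is 1 library, with symbols for replicates 1 to 4 as circles, squares, triangles and diamonds, and the dotted line is the floor of 3 counts. Only Il15 among these 10 genes has every P11 library above the floor and every E21 library below it.

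The general leukocyte markers were at a few counts in each library. Ptprc (ENSRNOG00000000655), which encodes the common leukocyte antigen CD45, had 1, 3, 4 and 3 counts at E21 and 1, 1, 6 and 6 at P11, with overlapping stages and p = 0.5429 in the exact permutation test. Aif1 (ENSRNOG00000000853), which encodes IBA1 of microglia and macrophages, had 0, 0, 1 and 0 counts at E21 and 1, 2, 9 and 9 at P11. P11 replicate 1 and E21 replicate 3 of Aif1 thus had the same count, below the floor, and differ in CPM only by their depth, so its permutation p is not given. The ratio of its summed counts was 21.5 with an exact 95% interval as wide as 3.46 to 889. Aif1 was called higher at P11 by edgeR without the filter and by DESeq2. The whole list of 8 markers of microglia, macrophages and other leukocytes, Ptprc and Aif1 included, summed to between 1.06 and 1.52 CPM at E21 and between 1.88 and 3.11 CPM at P11. None of the 8 (0 of 8) passed the filter, and none was at 0 through a whole stage. Without the filter edgeR's quasi-likelihood test called Nrros (adjusted p = 0.004172) and Srgn (adjusted p = 0.0004625) higher at P11 besides Aif1, while DESeq2 called Aif1 alone of the 8. The stages of Srgn overlapped, with 2, 5, 2 and 16 counts at P11. Of the others, none called, Ptprc, Ncf1 and Alox5ap had positive changes and Itgb2 and Arhgap30 negative ones. Itgb2 had 2, 4, 4 and 1 counts at E21 and 0, 1, 0 and 0 at P11. In bulk samples, fewer cells of a type and less RNA per cell cannot be told apart, and the part of these cells in the changes above was not tested.

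The genes called higher at P11 differed in how they varied over the P11 libraries. Cxcl1, Cd38 and Il2rg spread over 4.27-, 4.22- and 3.31-fold from the lowest to the highest P11 library. The 4 class I genes spread over 1.54- to 1.80-fold, Tap1 and Il1rap over 1.66-fold each, Tnfrsf12a over 1.47-fold and Cd164 over 1.14-fold. Over the same libraries the sum of the mural and fibroblast markers spread over 1.96-fold, lowest in replicate 3, then replicates 1, 2 and 4. Of the 11 genes, Cxcl1, Il2rg and Tnfrsf12a had that order of replicates, 5 were highest in replicate 4 and 7 were lowest in replicate 3. For Il2rg, replicates 3 and 1 both held 13 counts, so the order of these replicates rests on depth alone. Tnfrsf12a held 84 counts in replicate 3 and 89 in replicate 1. Tap1 and Cd38 had the lowest and highest replicate of the mural and fibroblast sum, with replicate 2 below replicate 1 between them. That is the order of Col1a1, itself a mural and fibroblast marker, and of the summed red blood cell markers. The sums of the endothelial markers and of the astrocyte and Müller glia markers ran in the order of the mural and fibroblast sum. At P11 most of the first was Notch4 and most of the second Hes1, and the endothelial marker Flt1 was lowest in replicate 1. The summed class I genes were lowest in replicate 4, at 11.7 CPM, and differed by 1.22-fold over the P11 libraries. Of them, RT1-N3 ran from replicate 4 to 1, 3 and 2, the order of the summed neuronal markers, which spread over 1.06-fold. The neuronal sums of replicates 1, 3 and 2 lay close together, at 2464, 2472 and 2486 CPM. RT1-M3-1 shared only the lowest and highest replicate of that order. RT1-CE5 and RT1-S3 were lowest in replicate 2, where the neuronal sum was highest. With 4 libraries no correlation was computed, and the part of mural cells, fibroblasts or other cells in these levels was not tested.

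**Figure D4:**
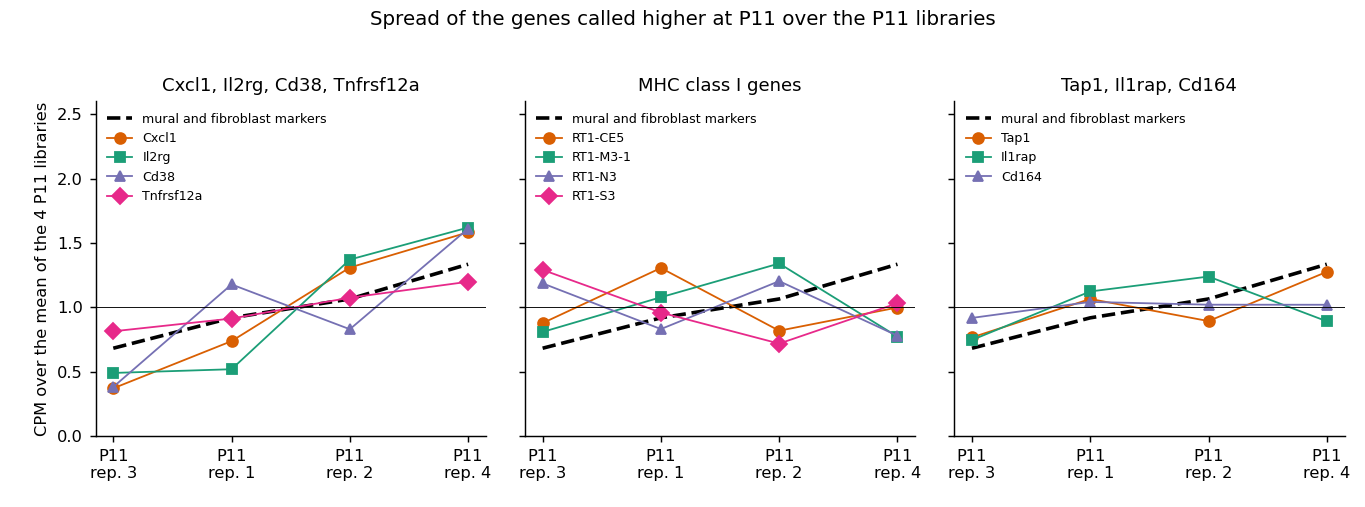
CPM of each gene called higher at P11, divided by its mean over the 4 P11 libraries, on a linear axis, with libraries placed in the order of the summed mural and fibroblast markers (dashed line). Lines join the values of a gene and stand for no time course. Cxcl1, Il2rg, Cd38 and Tnfrsf12a are lowest in replicate 3 and highest in replicate 4, as is Tap1, while the 4 class I genes are not. For Il2rg, replicates 3 and 1 have the same count and differ by depth alone.

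Other genes of the same pathways were read from the fit for comparison, as 56 named genes in 4 lists. Of these, 28 were tested, 11 were called higher at P11 (39.3% of those tested) and 2 higher at E21 (7.14%), where 16.5% and 8.16% of all genes tested were. In the antigen presentation and interferon list of 18 genes, 8 were tested and 3 were called, all higher at P11. They are the interferon-induced genes Ifitm1 (log2 fold change 5.84), Mx1 (3.59) and Mx2 (2.27), whose products act against viruses. Without the filter 10 of the 18 (55.6%) were called higher at P11, where 12.9% of all genes with a count were, among them the immunoproteasome subunits Psmb8 and Psmb9, the class II transactivator Ciita, the class I-like gene Mr1, and Ifi47, Gbp6 and Aim2, all with low counts. The stages of Aim2 overlapped, and the DESeq2 Wald test did not call it (adjusted p = 0.03642). The other 5 tested genes of this list were not called.

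In the list of cytokine signalling and its brakes, 11 of 12 genes were tested, 3 were called higher at P11 (27.3% of those tested) and 1 higher at E21 (9.09%), and the median log2 fold change of the 11 was -0.03. Without the filter 4 of the 12 (33.3%) were called higher at P11, where 12.9% of all genes with a count were. Prdm1 (5.44) and Bcl6 (3.63), transcriptional repressors known from lymphocytes and also expressed in the retina or brain, and Traf3ip2 (1.14), an adaptor of the interleukin-17 receptor, rose. Prdm1 had 2, 3, 0 and 0 counts at E21, and its change was 6.16 without E21 replicate 2, while Traf3ip2 lost its call without E21 replicate 3 (0.95). Socs3, a brake on JAK-STAT signalling, fell by 2.03 on the log2 scale, from between 5.51 and 6.29 CPM to between 1.24 and 1.75 CPM. In the complement list 2 of 5 genes were tested and both rose, Masp1 (1.5), a protease of the lectin pathway, and Susd4 (1.18), a complement inhibitor, and the same number were called without the filter. Of 21 genes listed for leukocytes, not all of them restricted to these cells, 7 were tested. Of the 7, 3 were called higher at P11 (42.9% of those tested) and 1 higher at E21 (14.3%). Without the filter 7 of the 21 (33.3%) were called higher at P11 and 1 (4.76%) higher at E21, where 12.9% and 5.79% of all genes with a count were. The chemerin receptor Cmklr1 (4.79), Rcsd1 (2.76) and Def6 (1.78) were called higher at P11. Gfi1, a zinc finger repressor also known from the inner ear and retina, was called higher at E21 (-3.37), where it was between 42.4 and 67.2 CPM. Which cells these calls come from was not tested. Cmklr1 had 0, 0, 6 and 0 counts at E21 and 35, 48, 25 and 69 at P11. Its change was 8.44 without E21 replicate 3, which leaves E21 with no counts, so that this value depends on the prior count of the fit.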

How the data were processed

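Total RNA of immunopanned RGCs was sequenced in 4 libraries at E21 and 4 at P11, grouped by the sample titles. Per the submitters' processing notes and the methods of the study, the authors trimmed reads with cutadapt 1.16, quality-filtered them with PRINSEQ, aligned them to Rnor_6.0 with STAR 2.5.3a and counted them with HTSeq 0.6.1. The deposited values are whole-number read counts per Ensembl gene ID, without normalization or pooling. The annotation release and the strand setting are not given in the sources used here, so overlapping and antisense genes may share reads. Records that name no gene, 51.7% to 58.4% of each library and mostly alignments to more than 1 place, were left out of library sizes and tests. Symbols were taken only from the supplementary gene table of the study, of which 1998 of 15836 rows were at hand. That table also holds normalized values and the fold changes and p-values of the authors' own comparison, which were not used. The RefSeq gene table paired 0 of the IDs.

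Counts were filtered with filterByExpr, normalized by TMM and tested with edgeR 4.0.16 (quasi-likelihood test, robust estimation, stage as the term) in R 4.3.3, with Benjamini-Hochberg adjustment over 14043 genes. The study's thresholds were kept, while its DESeq2 test was run as an alternative (DESeq2 1.42.0). Genes outside the filter were compared by an exact permutation test of CPM, and ratios of summed counts have exact binomial intervals at the 95% level (scipy 1.17.1). Floors and intervals cover counting error only, since copies of a molecule made by PCR could not be told from separate molecules. The libraries are from independent litters, and no 2 libraries of a stage agreed within sampling noise (chi-square per degree of freedom 2.861 to 8.122). The scripts were tested on simulated data. All 30 genes were accounted for: called genes are given by library with their statistics, tested genes that were not called by level and change, and untested genes by counts, while every called gene of the 4 further lists is named and the rest are counted. The genes, the lists and the markers were chosen with earlier results of these data known. Alternatives were the DESeq2 test, 3 other scalings, 2 other filters, glmTreat, an adjusted p of 0.05, no robust estimation, the replicate number as a block and each library left out.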

Additional observations from a re-analysis of the deposited data

Results flagged for a closer look

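In 3 of 60 groups of 4 libraries, 1 library stood apart from the other 3 by Dixon's criterion. Chance alone gives about 1 in 20 for continuous values. That rate does not hold for counts at or near 0, such as those of Aif1 and Cxcl2 at E21. The level of Faslg in E21 replicate 1 was 0.870 CPM, where the other E21 libraries were between 1.15 and 1.17 CPM. Aif1 in E21 replicate 3 was at 0.0525 CPM, which is 1 count, with 0 in the other E21 libraries. Cxcl2 in E21 replicate 3 was also at 0.0525 CPM and 1 count, with 0 in the other E21 libraries.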

How the results depend on the processing

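The counts of immune genes called, 11 higher at P11 and 2 higher at E21, were the same with DESeq2 size factors, library size scaling, upper-quartile factors, an adjusted p of 0.05, no robust estimation and the replicate number as a block, and the same 13 genes were called in each. No scaling moved the median log2 fold change of all genes by more than 0.0502 from 0. The DESeq2 test called 13 and 1, keeping 12 of the 13 genes, no filter called 13 and 2, and glmTreat called 10 and 1, losing RT1-S3 (adjusted p = 0.6239) and Faslg (0.6022). Where every library had to hold 10 counts, only 11 of the immune genes were tested, and 5 and 0 were called, all 5 of them among the 13 genes. Of the other 56 immune genes, 11 called higher at P11 became 17 with DESeq2, 23 without the filter and 4 where every library had to hold 10 counts. Over all genes, 2316 higher at P11 became 1523 under that filter, and 1146 higher at E21 became 668 with glmTreat. With each library left out, the immune genes called were 11 to 12 at P11 and 2 to 3 at E21, the other immune genes 11 to 13 and 2, and all genes 2337 to 2443 and 1109 to 1225. Of the changes of tested immune genes fitted with a library left out, 152 kept direction and side of the threshold. The others were RT1-S3, which lost its call in 2, Cd55, which gained it in 3, and Il23a, not called and between -0.37 and 0.21, which turned sign without E21 replicate 3 (0.0069), E21 replicate 4 (0.076) or P11 replicate 1 (0.21). Same-numbered libraries did not deviate together (correlations -0.0207, 0.078, -0.0268 and 0.0715), so the replicate numbers were not taken to pair the litters, and the block called 2316 and 1147 of all genes. Depth limits the 10 untested genes, which had at most 9 counts in any library except Il15, with up to 25.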
